A study of Rattus norvegicus with 24 samples.

Results

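The haemoglobin genes of the rat frontal cortex (FC) were followed with Alas2, the enzyme that starts haem synthesis in red cell precursors, as a readout of the blood in the tissue. Members were the reference genes of the deposited tables whose names start with Hba or Hbb, plus Alas2. This gave 6 of 32883 reference genes, namely Hba-a1, Hba-a2, Hba-a3, Hbb, Hbb-bs and Alas2, and 0 names were left out. Polyadenylated RNA was sequenced from 24 adult male Sprague-Dawley rats 24 hours after inhalation of a tungsten particle aerosol. The 3 groups of 8 rats were Control (0 mg/m3), Low (5 mg/m3) and High (80 mg/m3), and each library carries a number from 49 to 72. Every library title also carries the word Repeat, and whether it names a repeated exposure was not settled here. No source used here says whether blood was washed from the brains by perfusion.

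Haemoglobin carries oxygen in red blood cells and is built from alpha chains and beta chains, each holding a haem group. The alpha and beta genes lie in separate clusters on different chromosomes, and circulating young red cells still hold much globin mRNA. Alas2 is the red cell form of the first enzyme of haem synthesis, while other tissues rely on Alas1. In brain tissue that has not been washed free of blood, these transcripts come largely from cells inside the vessels, although low globin expression by brain cells has also been described.

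Coverage, the mean read depth per base that the program StringTie gives for each gene, was divided by the sum over all reference genes of the library and multiplied by 1e+06. This scaled coverage is the level given throughout, and since it is a depth per base it can be compared between genes, with a limit for Hbb-bs given below. Summed reference coverage, divided by 1e+06, ran from 1.64 to 3.07 over the 24 libraries. Libraries 56 to 62, which are 1 Control and 6 Low libraries, stand apart from the other 17. Their coverage of short mitochondrial genes on the minus strand was 5449 to 8102 in scaled coverage, against 84.9 to 155 in the others, so the comparisons of the members between groups are given with and without them. The tables of the Low group list 0 loci assembled from the reads, while Control and High tables list 46334 to 159573 and 50235 to 64010, so the kind of table and the Low exposure cannot be told apart. Genes that mark neurons were high in the tissue, with mean levels of 723 for the kinase Camk2a and 702 for the glutamate transporter Slc17a7.

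The stretches just upstream of the globin genes show which members resemble each other most. They are RefSeq sequences of the build GRCr8, 120 bases that end at the base before the annotated start, read 5′ to 3′ on the minus strand. RefSeq has Hbb-bs on that strand, while the deposited tables, which use other coordinates, list it on the plus strand. Capitals mark 3 short motifs searched on both strands. They are the CCAAT box, the CACCC box and, as the third, the letters ATAAA of the globin TATA-like box.
Hba-a1 (chr10:15842581-15842700): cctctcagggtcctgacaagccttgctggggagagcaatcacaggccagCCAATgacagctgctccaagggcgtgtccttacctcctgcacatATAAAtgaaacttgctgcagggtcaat
Hba-a2 (chr10:15829139-15829258): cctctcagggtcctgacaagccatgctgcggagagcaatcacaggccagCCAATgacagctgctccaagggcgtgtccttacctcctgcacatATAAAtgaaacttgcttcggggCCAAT
Hba-a3 (chr10:15816944-15817063): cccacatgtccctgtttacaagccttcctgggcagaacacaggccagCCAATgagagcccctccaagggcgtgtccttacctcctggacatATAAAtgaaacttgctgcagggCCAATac
Hbb (chr1:167663722-167663841): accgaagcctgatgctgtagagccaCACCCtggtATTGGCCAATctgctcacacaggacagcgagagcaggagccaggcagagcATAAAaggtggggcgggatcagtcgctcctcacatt
Hbb-bs (chr1:167631631-167631750): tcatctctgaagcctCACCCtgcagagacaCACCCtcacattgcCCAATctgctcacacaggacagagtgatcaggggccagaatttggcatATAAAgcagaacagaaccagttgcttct

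All 5 globin members hold CCAAT and ATAAA in this window, against 19.9% and 21.5% of the 33469 RefSeq promoters of the same length. CACCC was found upstream of Hbb and Hbb-bs and not of the alpha genes, against 29.5% of all promoters. The letters GATA, found in 31.4% of promoters, were in 0 of the 5 windows. The window upstream of Alas2 in the RefSeq table held none of these 4 motifs. It depends on the start annotated there, and motifs at another start or outside the window were not searched. The upstream windows of Hba-a1 and Hba-a2 were 95.8% identical and those of Hba-a1 and Hba-a3 83.2% identical, while Hbb and Hbb-bs shared 68.0%. A match of letters is a description and not a bound site.

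Hba-a1 was the highest member in all 24 libraries. It lies on chromosome 10 from 15602794 to 15603649 in the coordinates of the tables, and Hba-a2 (15589364 to 15590220) and Hba-a3 (15577249 to 15577977) lie beside it on the same minus strand. Over the 24 libraries the level of Hba-a1 was 545 ± 188 (SD), that of Hba-a2 235 ± 83.6 and that of Hba-a3 9.89 ± 4.43. Among the beta genes on chromosome 1, Hbb (168971274 to 168972725, minus strand) had a level of 211 ± 79.3. Hbb-bs (168945449 to 168965566, plus strand) had a level of 14.4 ± 5.26. Alas2, on chromosome X from 23167696 to 23187341, had a level of 2.08 ± 0.771. Hba-a1 ranked between 77 and 441 among all reference genes of its library. The 5 globin genes together made up 0.0469% to 0.180% of the reference coverage.

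**Figure D1:**
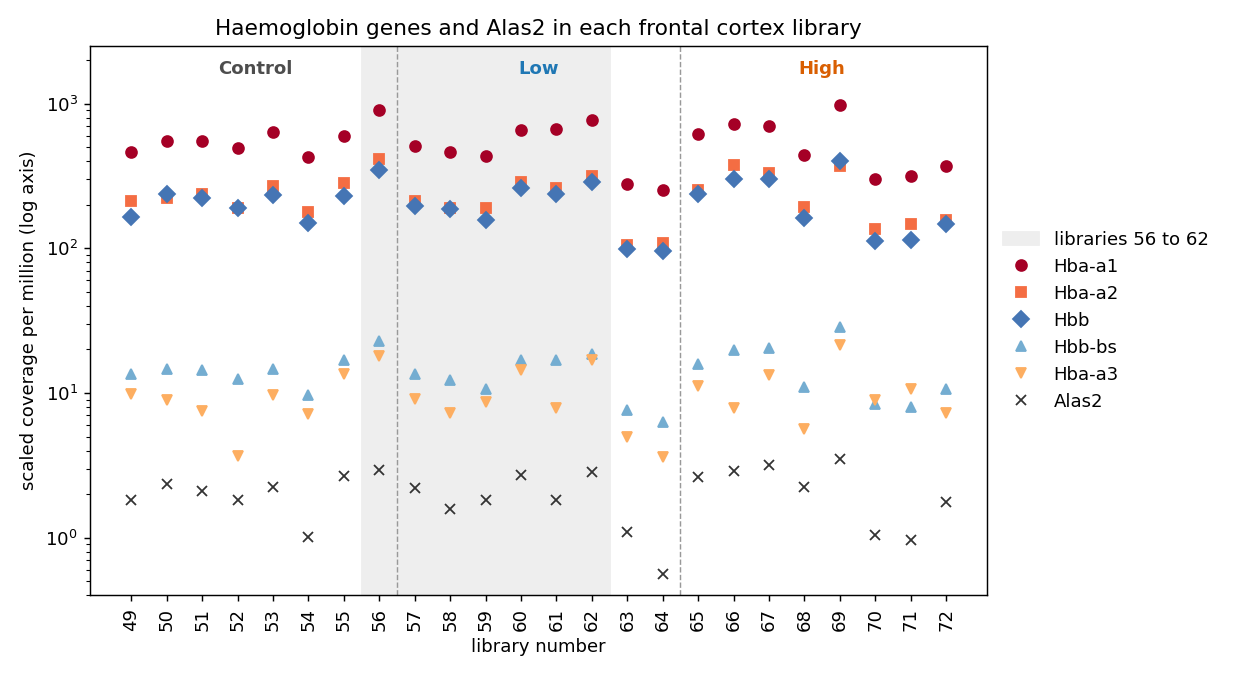
Scaled coverage of the 5 haemoglobin genes and Alas2 on a log axis, 1 point per gene and library, with library numbers 49 to 72 on the x axis, dashed lines between the groups and libraries 56 to 62 shaded. Hba-a1 and Hbb have their lowest points in Low library 64 and their highest in High library 69.

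The order of the levels was Hba-a1, Hba-a2, Hbb, Hbb-bs, Hba-a3 and Alas2. The neighbours Hba-a2 and Hbb were close, with a ratio of 1.12 ± 0.0992 (SD, n = 24) and Hba-a2 higher in 22 of 24 libraries. Hbb-bs was above Hba-a3 in 22 of 24 libraries as well, at a ratio of 1.57 ± 0.543. The remaining neighbours kept their order in all 24 libraries. The alpha genes belong to 1 family, as do the beta genes, and their transcript sequences were not compared here. No source used here says how reads that fit several genes of a cluster were shared out, so the division within a cluster is uncertain. Hbb-bs carries a further uncertainty. Its ratio of coverage to the deposited FPKM, a level scaled by length and depth, was 0.295 to 0.374 times the median ratio of its library. For the other members this was 1, so the level of Hbb-bs is less comparable with theirs. Its row also spans 20118 bases and encloses LOC100134871 (168957460 to 168958836, same strand). RefSeq names that gene Hbbl1, a beta globin, and its level of 138 ± 51.4 was 9.60 ± 0.803 times that of Hbb-bs. Its name does not start with Hbb in the tables, so it is no member. With it added, the haemoglobin sum was 1221 ± 328 in Control, 1044 ± 384 in Low and 1196 ± 518 in High (SD, n = 8 each), and the log2 ratio of the means of Low to Control was -0.23.

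Hba-a1, Hba-a2, Hbb and Hbb-bs kept nearly constant proportions while their levels varied, and Hba-a3 and Alas2 did not keep theirs as closely. Summed over the 5 globin genes, haemoglobin ran from 469 in Low library 64 to 1796 in High library 69, a 3.83-fold range with a coefficient of variation of 35.1%. The share of the alpha genes in this sum was 77.9% ± 1.07 (SD, n = 24) and ran only from 75.6% to 79.5%. Only Hbb and Hbb-bs count as beta genes in it. LOC100134871, at 138 ± 51.4, is outside the sum, and with it added the alpha share would be lower. The ratio of Hba-a1 to Hbb, an alpha and a beta gene on different chromosomes, was 2.61 ± 0.161, with a coefficient of variation of 6.17%. The ratio of Hba-a1 to Hba-a2 was 2.34 ± 0.174. That of Hbb to Hbb-bs was 14.6 ± 0.941. The ratio of Hba-a2 to Hba-a3 varied as widely as the sum itself, with a coefficient of variation of 34.9%, at 25.7 ± 8.99, from 13.9 in High library 71 to 51.7 in Control library 52. The ratio of the haemoglobin sum to Alas2 was 510 ± 113, from 362 to 839, a coefficient of variation of 22.1%.

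The alpha share, again without LOC100134871, was alike in the 3 groups (SD, n = 8 each). It was 78.0% ± 1.28 for Control, 78.1% ± 0.783 for Low and 77.7% ± 1.18 for High. In Low libraries 63 and 64, which had the lowest haemoglobin of all, it was 78.5% and 78.3%. The alpha and beta genes were thus low in nearly the same proportion in these libraries.

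On the log2 scale, Hba-a1 and Hbb had a Pearson's r of 0.989 (permutation test, p = 1e-05, adjusted p = 3e-05, n = 24) and a Spearman's rho of 0.981 (permutation test, p = 1e-05, adjusted p = 4e-05). The value 1e-05 is the smallest that 100000 permutations can give. Without the 2 libraries farthest from the median, r was 0.985. Within the groups r was 0.966 (Control), 0.993 (Low) and 0.997 (High) (exact permutation tests, two-sided, adjusted p = 0.000298, 9.92e-05 and 5.95e-05). It was 0.983 within libraries 56 to 62 (exact permutation test, adjusted p = 0.000529, n = 7) and 0.992 in the other 17 libraries (permutation test, adjusted p = 3e-05).

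Alas2, which is encoded on another chromosome and takes no part in the globin chain itself, followed Hba-a1 with an r of 0.909 (permutation test, p = 1e-05, adjusted p = 3e-05, n = 24) and a rho of 0.912 (permutation test, p = 1e-05, adjusted p = 4e-05). Without the 2 libraries farthest from the median, r was 0.876. Within the groups r was 0.819 in Control, 0.919 in Low and 0.956 in High (exact permutation tests, two-sided, adjusted p = 0.0245, 0.0017 and 0.00017). It was 0.810 within libraries 56 to 62 (exact permutation test, adjusted p = 0.0385, n = 7) and 0.928 in the other 17 (permutation test, adjusted p = 3e-05). Without the 2 farthest libraries, the r within libraries 56 to 62 was 0.612. In all, 12 relations were computed and adjusted together.

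**Figure D2:**
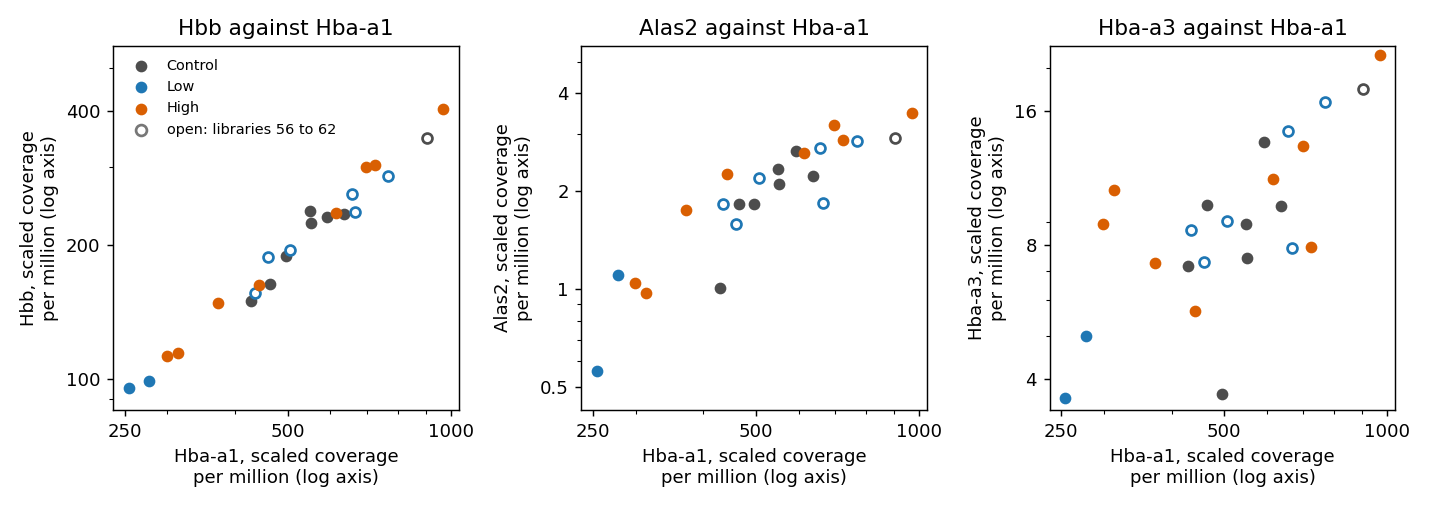
Levels of Hbb, Alas2 and Hba-a3 against Hba-a1 in scaled coverage, log axes, 1 point per library, coloured by group, with libraries 56 to 62 as open points. Hbb follows Hba-a1 over the whole range (r = 0.989), Alas2 follows with more spread (r = 0.909), and Hba-a3 is the loosest of the 3.

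Low and Control were compared to ask whether the lower exposure went with another amount of blood transcript. In bulk tissue, fewer red cells and less globin mRNA per red cell cannot be told apart. Hba-a1 ran from 429 to 905 in Control (median 551) and from 255 to 768 in Low (median 483), so the groups overlapped. Its difference on the log2(scaled coverage + 1) scale was -0.26 (Low minus Control, SE 0.25, limma, adjusted p = 0.609). Hba-a2 ran from 178 to 411 in Control (median 231) and from 106 to 315 in Low (median 201), with a difference of -0.31 (SE 0.25, limma, adjusted p = 0.536). Hbb ran from 150.0 to 347 in Control (median 227) and from 95.4 to 286 in Low (median 191), with a difference of -0.29 (SE 0.27, limma, adjusted p = 0.603). In each of these the highest Control value came from library 56 and the lowest Low values from libraries 63 and 64.

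The lower members showed the same overlap. Hbb-bs had a median of 14.6 in Control and 12.9 in Low, and a difference of -0.24 (SE 0.24, limma, adjusted p = 0.618). Hba-a3 ran from 3.69 to 17.9 in Control (median 9.33) and from 3.62 to 16.8 in Low (median 8.26), with a difference of -0.12 (SE 0.28, limma, adjusted p = 0.856). Alas2 ran from 1.01 to 2.92 in Control (median 2.17) and from 0.559 to 2.86 in Low (median 1.83), with a difference of -0.16 (SE 0.19, limma, adjusted p = 0.685). So 0 of 6 members passed an adjusted p of 0.05 between Low and Control, where 6.11% of the 15644 genes tested did (1.23% higher and 4.88% lower in Low), and 0 passed at an unadjusted p under 0.05, where 18.4% of genes did. The groups overlapped for all 6 members, while they did not for 1.53% of genes. The 95% intervals of the differences reached from -0.84 to 0.46, which leaves room for a fall or rise of that size. Over all genes tested the median difference was 0.06.

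Summed haemoglobin was 1076 ± 288 in Control, 923 ± 340 in Low and 1049 ± 452 in High (SD, n = 8 each). The log2 ratio of the means was -0.22 for Low to Control, -0.04 for High to Control and -0.18 for Low to High, each smaller than the spread between libraries. No test was run on the sum. The sign for Low turned positive with the FPKM column and with scaling to all identifiers of the tables, where the log2 ratio of Low to Control was 0.31 and 0.62. With scaling to all identifiers 3 of 6 members were higher in Low than in Control and 4 of 6 higher than in High (limma, adjusted p under 0.05), but so scaled 93.7% and 93.8% of all genes passed, a larger share than of the members.

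**Figure D3:**
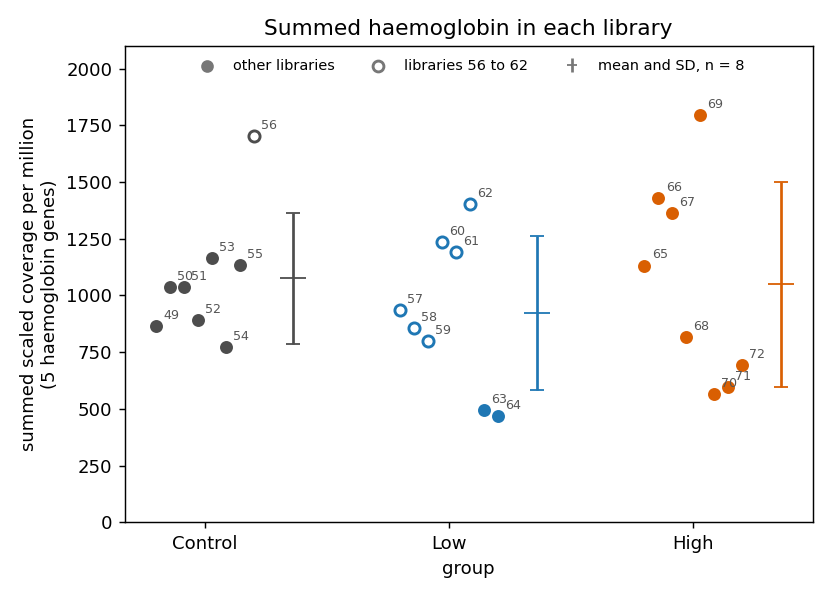
Summed scaled coverage of the 5 haemoglobin genes in each library, by group, with the library number beside each point, open points for libraries 56 to 62 and bars for mean and SD (n = 8). The groups overlap, and Low libraries 63 and 64 lie lowest at 495 and 469.

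The difference between Low and Control was larger without libraries 56 to 62. Without them, Control keeps 7 libraries and Low keeps only 63 and 64, while High keeps all 8. Hba-a1 was then 278 and 255 in Low, against 429 to 637 in Control, and the groups no longer overlapped. The difference was -0.98 (SE 0.33, limma, adjusted p = 0.260). Hba-a2 was 106 and 109 in Low against 178 to 281 in Control, a difference of -1.06 (SE 0.33, limma, adjusted p = 0.182). Hbb was 98.8 and 95.4 against 150.0 to 238, a difference of -1.04 (SE 0.38, limma, adjusted p = 0.326). For 4 of 6 members, the 3 above and Hbb-bs, all Control values lay above both Low values, a separation also found in 11.3% of all genes tested. Still 0 of 6 members passed an adjusted p of 0.05, where 2.2% of genes did. At an unadjusted p under 0.05, 1264 of 15669 genes passed in this fit, and the count of members is not given here. The 3 differences above were each larger than their SE, but they rest on Low libraries 63 and 64 alone and on genes that move together.

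With all 24 libraries and membership in libraries 56 to 62 as a covariate, 1 of 6 members passed between Low and Control, where 2.31% of genes did. Between Low and High 0 of 6 passed, where 2.26% of genes did. The member that passed was Hba-a2, with a difference of -0.96 (SE 0.25, limma, adjusted p = 0.0375). Hba-a1 had -0.87 (SE 0.25, limma, adjusted p = 0.0853). Low libraries 57 to 62 alone had a summed haemoglobin of 1070 ± 241 (SD, n = 6) against 482 in the mean of Low 63 and 64. The single Control library within the set, 56, had 1704, while the other Control libraries had 986 ± 146 (SD, n = 7). With 1 Control and 6 Low libraries inside the set and 2 Low libraries outside it, the exposure and the set can be compared only through these few libraries. The part of the mitochondrial signal in this result was not tested.

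**Figure D4:**
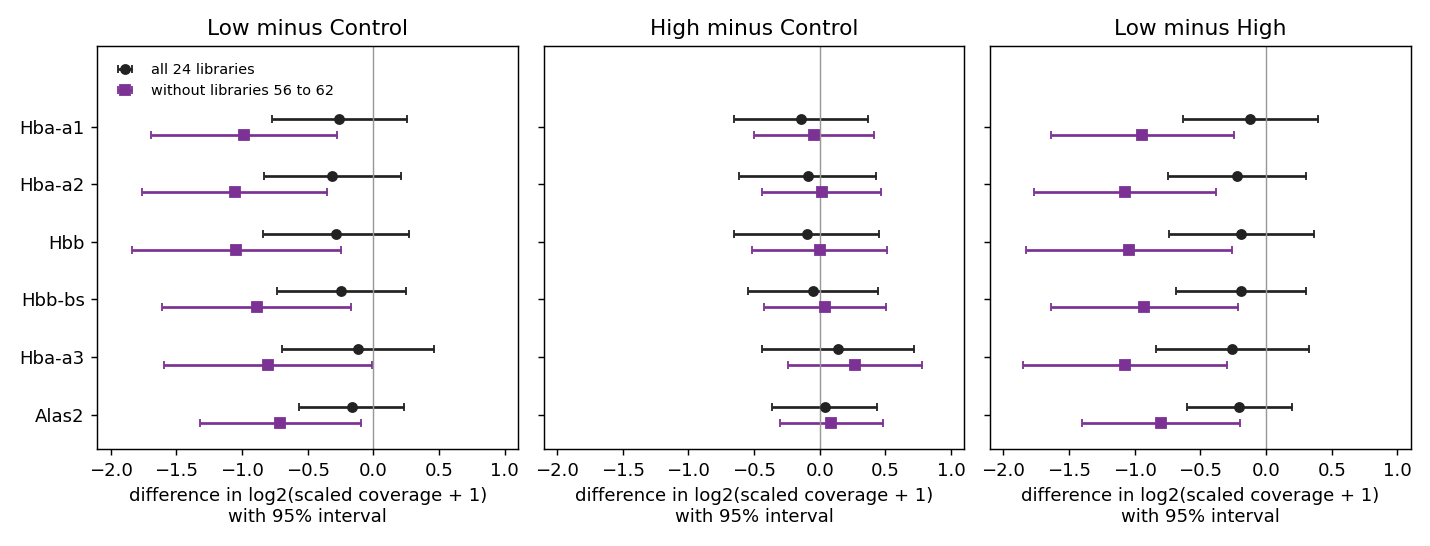
Difference in log2(scaled coverage + 1) of the 6 members with 95% interval, for each pair of groups, with all 24 libraries (circles) and without libraries 56 to 62 (squares). With all libraries every interval includes 0, while without libraries 56 to 62 the differences of Low from both other groups lie between -0.71 and -1.07.

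High and Control were compared to ask the same of the higher exposure. Hba-a1 ran from 299 to 970 in High (median 529), a wider range than in Control, with a difference of -0.14 (High minus Control, SE 0.25, limma, adjusted p = 0.999). Hba-a2 ran from 136 to 376 in High (median 223), a difference of -0.09. Hbb ran from 113 to 404 in High (median 199), a difference of -0.10. Hbb-bs, Hba-a3 and Alas2 had differences of -0.05, 0.14 and 0.04. The High libraries spread widely, with 66, 67 and 69 between 1361 and 1796 in summed haemoglobin and 70, 71 and 72 between 565 and 694. In this comparison 0 of 6 members passed an adjusted p of 0.05 in limma, and so did 0% of all genes. At an unadjusted p under 0.05, 0 members and 2.11% of genes passed. High and Control overlapped for all 6 members, with or without libraries 56 to 62, while they did not for 0.00639% of genes either way. The exact permutation test of each member, two-sided and unadjusted, also passed 0 of 6 here and in the comparisons with Low. That test was run on the members alone, so no share over all genes stands beside this count.

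Low and High were compared to ask whether the 2 exposures differed from each other. The 6 members had differences (Low minus High) of -0.12 for Hba-a1, -0.22 for Hba-a2, -0.25 for Hba-a3, -0.19 for Hbb, -0.19 for Hbb-bs and -0.20 for Alas2. Adjusted p in limma was 0.504 to 0.773, and 0 of 6 members passed, where 11.7% of genes did (5.3% higher and 6.39% lower in Low). At an unadjusted p under 0.05, 0 members and 29.1% of genes passed. Low and High overlapped for all 6 members, while they did not for 2.26% of genes. Without libraries 56 to 62 the differences were -0.80 to -1.07 (limma, adjusted p = 0.144 to 0.277), again with 0 of 6 members passing, where 2.26% of genes did. In that fit 1708 of 15669 genes passed at an unadjusted p under 0.05, and the count of members is not given here. Groups then failed to overlap for 5 of 6 members, as for 16.1% of all genes, Alas2 being the exception. Control and High share the Low libraries as partner here, so these values are not independent of those against Control.

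The members varied more between rats of a group than most genes. Their SD within groups, on the log2(scaled coverage + 1) scale, was 0.53 for Hba-a1, 0.54 for Hba-a2, 0.57 for Hbb, 0.50 for Hbb-bs, 0.59 for Hba-a3 and 0.40 for Alas2. The median over the 15644 genes tested was 0.22, and 83.5% to 93.4% of genes had a smaller SD than each member. Of the variance of each member over all libraries, 3.40% to 6.39% lay between the groups. Summed haemoglobin had a Spearman's rho of 0.01 with summed reference coverage, 0.27 with the mitochondrial share of coverage and 0.40 with the short mitochondrial genes of the minus strand, over 24 libraries and as a description only.

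The embryonic globins and most defining red cell genes were listed at or near 0, unlike the globins of brain cells. The embryonic beta-like genes Hbe1 and Hbe2 and the gene Hbg1 were listed at 0 in all 24 libraries, and the embryonic alpha-like gene Hbz in 23. Ngb (neuroglobin) and Cygb (cytoglobin), which brain cells express, had mean levels of 2.89 and 42.4. Their rho with summed haemoglobin was 0.03 and 0.21, and 0 of these 2 genes passed in any comparison. Of 19 defining red cell genes, 18 were found by name and 1, the transcription factor Klf1 (mean level 1.26), reached the mean of 1 needed for the test. It passed in 0 comparisons and had a rho of -0.05 with summed haemoglobin. The band 3 anion exchanger Slc4a1, a main red cell membrane protein, had a mean level of 0.241 and a rho of 0.65 with summed haemoglobin. Ahsp, the alpha haemoglobin stabilising protein, had 0.906 and a rho of -0.05. Rhd, a blood group membrane protein, had 0.956 and a rho of 0.52. The summed level of the 18 genes was 2.28 to 8.73 over all libraries, with a rho of 0.63 with summed haemoglobin. Single genes of the list ran from -0.05 (Ahsp) to 0.65 (Slc4a1), with others near 0, such as Kel at -0.02 and Trim58 at 0.09.

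Haem synthesis genes, which every tissue uses, had values of rho with summed haemoglobin on both sides of 0. The list of haem synthesis holds 14 genes, all tested, whose rho with summed haemoglobin ran from -0.27 to 0.53 with a median of 0.01. Alas1, the form of the first enzyme used outside red cells, had a mean level of 34.4 and a rho of -0.23. Between Low and High, 1 of the 14 passed, where 11.7% of all genes did. This was Alad, the second enzyme of the pathway, at 15.6 ± 1.26 in Low and 12.7 ± 1.37 in High (difference 0.28, SE 0.07, limma, adjusted p = 0.0130). The median difference of the list was 0.08 between Low and High, against 0.09 over all genes. Of 13 genes of haem export, scavenging and breakdown, 11 were tested and 0 passed in any comparison. Slc48a1, a haem transporter of the endolysosome, had the highest mean level of these at 124, followed by Lrp1, the receptor for haem bound to haemopexin, at 94.4. Hmox1, the inducible haem oxygenase, had 5.85 ± 1.35 in Control, 5.48 ± 0.986 in Low and 4.72 ± 1.21 in High (SD, n = 8 each).

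Red cell genes that the brain also expresses had a rho with summed haemoglobin of -0.46 to 0.50 (median -0.12), and all 12 were tested. Between Low and High, 3 were higher in Low and 0 lower, where 5.3% and 6.39% of all genes were. Tfrc, the transferrin receptor that takes up iron, was 61.2 ± 6.70 in Low and 46.4 ± 3.68 in High (difference 0.39, SE 0.08, limma, adjusted p = 0.00315). Bnip3l, a receptor for the clearance of mitochondria, had a difference of 0.22 (SE 0.06, limma, adjusted p = 0.0114). Bpgm, which makes 2,3-bisphosphoglycerate, had a difference of 0.21 (SE 0.06, limma, adjusted p = 0.0253). The median difference of the list was 0.19, against 0.09 over all genes. With median-of-ratios scaling Tfrc still passed, at 0.30, while Bnip3l had 0.13, Bpgm 0.12 and Alad 0.19 (limma, adjusted p = 0.246, 0.331 and 0.116). Without scaling none of these 4 genes passed, and Bpgm had the other sign. Without libraries 56 to 62, with 2 Low libraries, none of the 4 passed either, at differences of 0.46 for Tfrc, 0.30 for Alad, 0.25 for Bnip3l and 0.18 for Bpgm. Nor did any of the 4 pass with these libraries as a covariate (limma, adjusted p = 0.189, 0.192, 0.131 and 0.381 in the same order).

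Genes of other blood cells were mostly low, and those tested had a positive rho with summed haemoglobin. Of 10 platelet genes, 3 were tested, with a rho of 0.28 to 0.70, and the integrin Itga2b had the highest. Treml1, a platelet receptor, was 3.20 ± 1.02 in Control and 1.86 ± 0.606 in Low (difference -0.54, SE 0.15, limma, adjusted p = 0.0328). The sign was the other one with scaling to all identifiers. Of 18 leukocyte genes, 5 were tested, with a median rho of 0.57, and 0 passed in any comparison. Lyz2, which brain microglia also express, had a mean level of 56.8, and Ptprc (CD45) had 2.19. Summed leukocyte levels had medians of 68.1 (Control), 64.9 (Low) and 71.3 (High).

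Vessel genes were present at higher levels. Of 19 endothelial genes, 17 were found and 16 tested, with a median rho of 0.34 with summed haemoglobin. Of these 16, 2 passed between Low and High, where 11.7% of all genes did. The list's median difference there was 0.14, against 0.09 over all genes. The transporters Slco1a4 and Slco1c1 of the blood-brain barrier, which passed, were higher in Low than in High, by 0.33 (SE 0.10, limma, adjusted p = 0.0235) and 0.30 (SE 0.07, limma, adjusted p = 0.00963). With median-of-ratios scaling they had 0.24 and 0.20 and no longer passed (limma, adjusted p = 0.0988 and 0.132), nor did they without scaling. Cldn5, a tight junction gene used as a marker of this endothelium, was listed at 0 in 19 libraries. Summed endothelial levels had medians of 421 (Control), 453 (Low) and 406 (High). Summed mural cell levels had medians of 222 (Control), 211 (Low) and 239 (High). All 12 mural cell genes were tested, with a median rho of 0.39. Of these, 1 passed between Low and Control and between Low and High, where 6.11% and 11.7% of all genes did. The median difference of the list was -0.02 and 0.08 in these comparisons, against 0.06 and 0.09 over all genes. The gene that passed was Pdgfrb. This receptor, a marker of pericytes, was 13.0 ± 2.40 in Control, 7.74 ± 1.38 in Low and 12.6 ± 2.20 in High. It was lower in Low than in Control by -0.68 (SE 0.13, limma, adjusted p = 0.000902) and than in High by -0.64 (SE 0.13, limma, adjusted p = 0.00136). Both signs turned with the FPKM column and with scaling to all identifiers. Kcnj8, another pericyte gene of the list, had a difference of 0.28 from Control (limma, adjusted p = 0.120). Without libraries 56 to 62 neither Pdgfrb, Treml1, Slco1a4 nor Slco1c1 passed, at differences of -0.56 and -0.57 for Pdgfrb, -0.89 for Treml1 (limma, adjusted p = 0.0502), 0.25 for Slco1a4 and 0.34 for Slco1c1. With these libraries as a covariate Treml1 passed (-0.85, limma, adjusted p = 0.00299), as did Pdgfrb against Control (-0.71, adjusted p = 0.0140) and High (-0.68, adjusted p = 0.0392), while Slco1a4 and Slco1c1 did not.

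Genes of the choroid plexus and meninges had a positive rho with summed haemoglobin. Of 12 genes, 11 were found and 7 tested, all with a rho of 0.37 to 0.67. Their summed level had a median of 124 in Control (92.6 to 190), 68.6 in Low (44.9 to 138) and 110 in High (47.9 to 167). The median difference of the 7 genes was -0.46 between Low and Control, and 0 passed. Igf2, a growth factor made by the meninges, was 51.9 ± 17.0 in Control and 25.7 ± 18.4 in Low (difference -1.26, SE 0.39, limma, adjusted p = 0.0558). Col1a1, a collagen of fibroblasts, was 25.4 ± 7.29 in Control and 16.9 ± 5.83 in Low (difference -0.57, SE 0.24, limma, adjusted p = 0.190). Without libraries 56 to 62 these were -1.17 and -0.86 (limma, adjusted p = 0.316 and 0.550), the list's summed level was 74.6 and 44.9 in Low 63 and 64 against 92.6 to 145 in Control, and its median rho was 0.72. The part of surface tissue in the haemoglobin levels was not tested. The 12 neuronal genes had a median rho of -0.41. The 7 oligodendrocyte genes had a median rho of -0.03, with a mean level of 2492 for Mbp, a protein of the myelin sheath. Without libraries 56 to 62 the median rho was 0.25 for endothelium, 0.43 for mural cells, 0.54 for leukocytes, 0.51 for platelets, -0.52 for neurons and 0.02 for haem synthesis. Of the neuronal and oligodendrocyte lists 0 genes passed in any comparison.

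**Figure D5:**
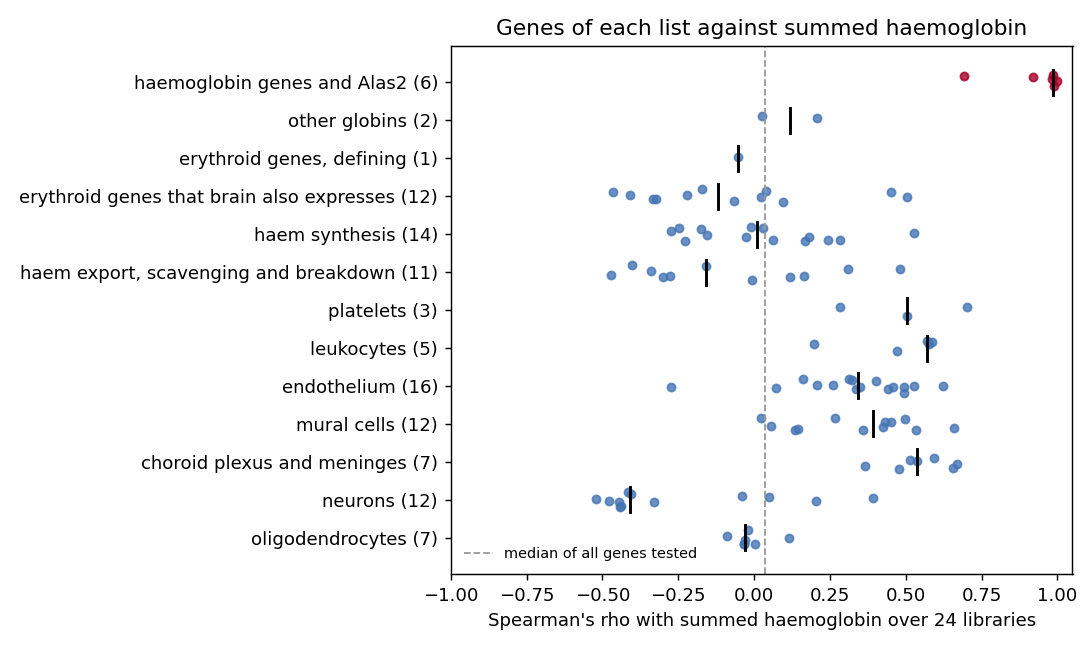
Spearman's rho of each tested gene with summed haemoglobin over 24 libraries, by gene list, with the number of genes in brackets, a black bar for the median of the list and a dashed line for the median of all genes tested (0.03). The haemoglobin genes, which form the sum, lie between 0.69 and 0.997, and the haem synthesis genes centre near 0.

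Among genes that are no members, 3 stood out by their likeness to summed haemoglobin over the 24 libraries. LOC103694857 and LOC103694855, on the unplaced contig AABR07024041.1, had a rho of 0.98 and 0.97, and LOC100134871 had 0.97. After them came Grin3b, an NMDA receptor subunit with a mean level of only 1.20, at 0.85. Aldh7a1, an aldehyde dehydrogenase, had 0.81, the annexin Anxa3 0.81 and the growth factor Pdgfd 0.78. Sparc, a matrix protein secreted by vessel and glial cells, had 0.75 at a mean level of 441, Cyth4 had 0.75 and Fcer1g, a subunit of Fc receptors on myeloid cells, 0.75. Of the members, Hba-a1 had a rho of 0.997, Hbb-bs 0.99, Hba-a2 0.99, Hbb 0.98 and Alas2 0.92, the first 4 being parts of the sum. Hba-a3 had only 0.69. Over all 15644 genes the median rho was 0.03, with 51 genes over 0.7 and 8 under -0.7. Without libraries 56 to 62, Sparc, Cyth4 and Fcer1g had 0.68, 0.68 and 0.69.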

How the data were processed

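The authors deposited 1 StringTie gene table per library, with coverage (a signal, the mean read depth per base), FPKM and TPM as deposited columns. In the deposited Low tables TPM over reference genes sums to 1e+06. In the deposited Control and High tables the loci assembled from reads reach that sum by themselves, beside the reference genes, so TPM was treated there as a score. The submitters' processing notes name FastQC, Trimmomatic, TopHat2 and StringTie and the build mRatBN7.2, with no versions of the tools. Contig names in the tables belong to an earlier assembly, so positions are those of the tables, while RefSeq sequences are of GRCr8. The tables used here give no numbers of reads, so depth is given as summed coverage and no counting interval is given. Beyond the word Repeat in every title, the labels do not say more of the replicates than their library numbers.

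Coverage was summed per gene identifier, divided by the reference sum and scaled to 1e+06. Those genes whose mean reached 1 were tested on log2(value + 1) in limma 3.58.1 (R 4.3.3), with trend and robust settings and all 24 libraries in 1 fit, two-sided, with Benjamini-Hochberg adjustment over all genes tested and a threshold of 0.05. Fold changes on this scale understate those of low genes such as Alas2. The test was checked on simulated data. Correlations used permutation tests (scipy 1.17.1), exact within groups of 8. The members and gene lists were chosen with earlier results of these data known. Named were all members, the list genes past the threshold (at most 4 a list) or else the highest of the list, and the 10 genes most like summed haemoglobin. In all, 1 gene that this rule names is not reported here. Hbe1, Hbe2, Hbg1, Hbz, Slc4a1, Ahsp, Alas1, Hmox1, Cldn5, Itga2b and Kcnj8 were named after their values were seen. Identity of sequences was taken from global alignment. Alternatives were other pseudocounts, filters, scalings and columns, assembled loci added, libraries 56 to 62 left out or as a covariate, only the groups compared, exact permutation tests and each library left out.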

Additional observations from a re-analysis of the deposited data

Results flagged for a closer look

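In 6 of 39 sets of 8 values, 1 library stood well away from its 7 companions, where chance gives about 1.95. Control library 56 was flagged for Hba-a1 at 905 (others 429 to 637), for Hba-a2 at 411 (others 178 to 281), for Hbb at 347 (others 150 to 238) and for summed haemoglobin at 1704 (others 773 to 1166). These 4 flags are of 1 library and of genes that move together. Control library 56 is also the Control library with high coverage of short mitochondrial genes on the minus strand, and the part of that in its haemoglobin level was not tested. In Control library 54 the ratio of summed haemoglobin to Alas2 was 764 (others 427 to 584). In Control library 52 the ratio of Hba-a2 to Hba-a3 was 51.7 (others 20.7 to 31.8), with the lowest Hba-a3 level of the group, 3.69.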

How the results depend on the processing

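The signs of the differences of Low depended on the scaling. In Low the sum over all identifiers equals the reference sum, as those tables list 0 assembled loci. In Control and High that sum also holds the assembled loci, so this scaling uses unlike divisors. Scaled to all identifiers, which the Low tables lack in part, differences of Low from Control were 0.56 (Hba-a1), 0.50 (Hba-a2), 0.60 (Hba-a3), 0.53 (Hbb), 0.51 (Hbb-bs) and 0.33 (Alas2), and from High 0.64, 0.54, 0.42, 0.57, 0.50 and 0.26 in the same order. With FPKM they were 0.25, 0.20, 0.30, 0.23 and 0.30 from Control and 0.34, 0.24, 0.15, 0.27 and 0.31 from High, with Alas2 untested. The median over all genes then moved from 0.06 to 0.81 and 0.53 against Control and from 0.09 to 0.79 and 0.52 against High. Members passing numbered 3 against Control and 4 against High with all identifiers, and 1 against Control with the covariate, each against 0 as reported, where 93.7%, 93.8% and 2.31% of all genes passed. The log2 ratio of summed haemoglobin, Low to Control, was 0.62 with all identifiers, 0.31 with FPKM, -1.24 with assembled loci added and -1.03 without libraries 56 to 62. Low to High was 0.58, -1.19 and -1.12 with all identifiers, assembled loci and without those libraries. Adding assembled loci changes only Control and High. For Hba-a1, 7 of 8 Control and 6 of 8 High libraries list an assembled locus with the same position and coverage, against 0 in Low. The addition thus counts the same coverage again in those libraries, and its values are no estimate of a difference in Low. Differences of High from Control changed sign at small sizes, to 0.042 (Hba-a1), 0.091 (Hba-a2), 0.084 (Hbb) and 0.12 (Hbb-bs) without scaling, 0.0051 (Hbb-bs) with all identifiers, 0.016 (Hba-a2) and 0.037 (Hbb-bs) without libraries 56 to 62, and 0.037 (Hba-a2), 0.027 (Hbb) and 0.058 (Hbb-bs) with the covariate. The cause was not tested.

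With each library left out in turn, the difference ran from -0.27 to 0.028 for Hba-a3 in Low against Control and from -0.23 to 0.013 for Hba-a1 in Low against High. In High against Control it ran from -0.048 to 0.13 for Alas2, -0.20 to 0.016 for Hba-a2, -0.017 to 0.27 for Hba-a3, -0.24 to 0.020 for Hbb and -0.19 to 0.054 for Hbb-bs. The log2 ratio of the sum ran from -0.33 to -0.09, -0.19 to 0.09 and -0.30 to -0.03 for Low to Control, High to Control and Low to High. No paired analysis was possible because the groups share no replicate numbers. Alas2 was untested at a minimum mean of 5. Without read counts, the counting error of low genes such as Alas2 is unknown.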
